A study of Arabidopsis thaliana with 2 samples.

Results

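A set of 10 regulator genes of light signalling in *Arabidopsis thaliana*, listed by locus for their function, was examined for the presence of MBD9: the bHLH genes *PIF1*, *PIF3*, *PIF4*, *PIF5* and *PIF7*, the bZIP genes *HY5* and *HYH*, the photoreceptor genes *PHYA* and *PHYB*, and *COP1*. These genes were chosen with earlier results of these data known. They are 10 of 27444 protein-coding genes on the nuclear chromosomes. MBD9 carries a methyl-CpG-binding domain and works with SWR1, a remodeling complex that exchanges canonical H2A for the variant H2A.Z in nucleosomes. The series maps the sites of MBD9 by ChIP-seq, with an anti-FLAG antibody, in Col-0 seedlings 13 days after germination, which the labels also describe as shoots. One group was a T4 transgenic line in which MBD9-3xFLAG, on a genomic fragment with its own promoter, is expressed in the *mbd9-3* mutant, and the other was untagged wild type, both fixed with a protein crosslinker and formaldehyde. Each group has 1 library, and whether other lines of the transgene behave alike was not tested.

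The data are the summits of peaks that the authors called in the MBD9-3xFLAG library against the wild-type library. The profile of the wild-type library was not analysed here. Each of the 13993 summits, in 10348 peaks, is a single base with a score, the -log10 of the q value of the enrichment. Scores ran from 2.0, at the q value cutoff of 0.01, to 197, with a median of 10.1 and an upper quartile of 20.8. Weaker enrichment would not be listed, and sequencing depth is unknown. With 1 library for each group no value has a replicate error and no test between groups is possible, so the genes are described beside the share of all protein-coding genes with the same feature. Intervals are 95% Wilson intervals and cover counting error only, not the choice of the genes, which was made with earlier results known.

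Phytochromes are photoreceptors that switch between an inactive and an active form with red and far-red light. Active phytochromes enter the nucleus, where they bind PHYTOCHROME INTERACTING FACTORS (PIFs), bHLH transcription factors that promote growth in darkness and shade, and mark them for destruction. COP1 is a ubiquitin ligase that removes HY5 and HYH, bZIP activators of the seedling's light programme, in darkness. PIFs bind the G-box CACGTG and the PBE-box CACATG, and HY5 binds G-boxes and other elements with an ACGT core.

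All 10 genes had a summit within 1 kb upstream of the transcription start site (TSS, the 5′ end of the annotated gene), inside the gene or within 500 bp of its 3′ end. The share was 10 of 10 (interval 72.2 to 100%), against 30.1% of all protein-coding genes. A summit upstream was found in 8 of 10 genes (49.0 to 94.3%), against 17.3% of all protein-coding genes. These were *PHYA*, *PHYB*, *PIF3*, *PIF4*, *PIF5*, *HY5*, *HYH* and *COP1*. A summit inside the gene was found in 6 of 10 (31.3 to 83.2%), against 13.6%. They comprised all 5 PIF genes and *PHYA*. With summits of a score of at least 10 the same count was 2 of 10, against 6.79%, so most of the summits inside these genes were weak. The 3′ region held a summit in 2 of 10 genes (5.67 to 51.0%), *PIF4* and *PIF5*, against 7.76%.

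In all, 20 summits from 16 peaks fell in these regions, 10 upstream, 8 in the gene and 2 on the 3′ side. The mean was 2.0 summits per gene, against 0.519 over all protein-coding genes. At least 2 summits were found in 5 of 10 genes (*PIF3*, *PIF4*, *PIF5*, *PHYA* and *PHYB*), against 12.1%. *PIF5* alone had at least 4, 1 of 10 against 2.36%. The genes are longer than most, with a median of 2986.5 bp against 2078 bp, and have more space before them, with a median of 1425.5 bp to the next gene of any type, against 719 bp. The same shares were therefore taken within strata of space and length. Of the 6 genes with no other gene within 1 kb upstream, 4 had an upstream summit, against 19.9% of 11230 such genes. The 4 genes with another gene within 1 kb (*PIF5*, *HY5*, *PHYA* and *COP1*) all had one, 4 of 4 against 15.6% of 16214. Among the 8 genes of at least the median length, 6 had a summit in the gene, against 16.5% of 13727.

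**Figure D1:**
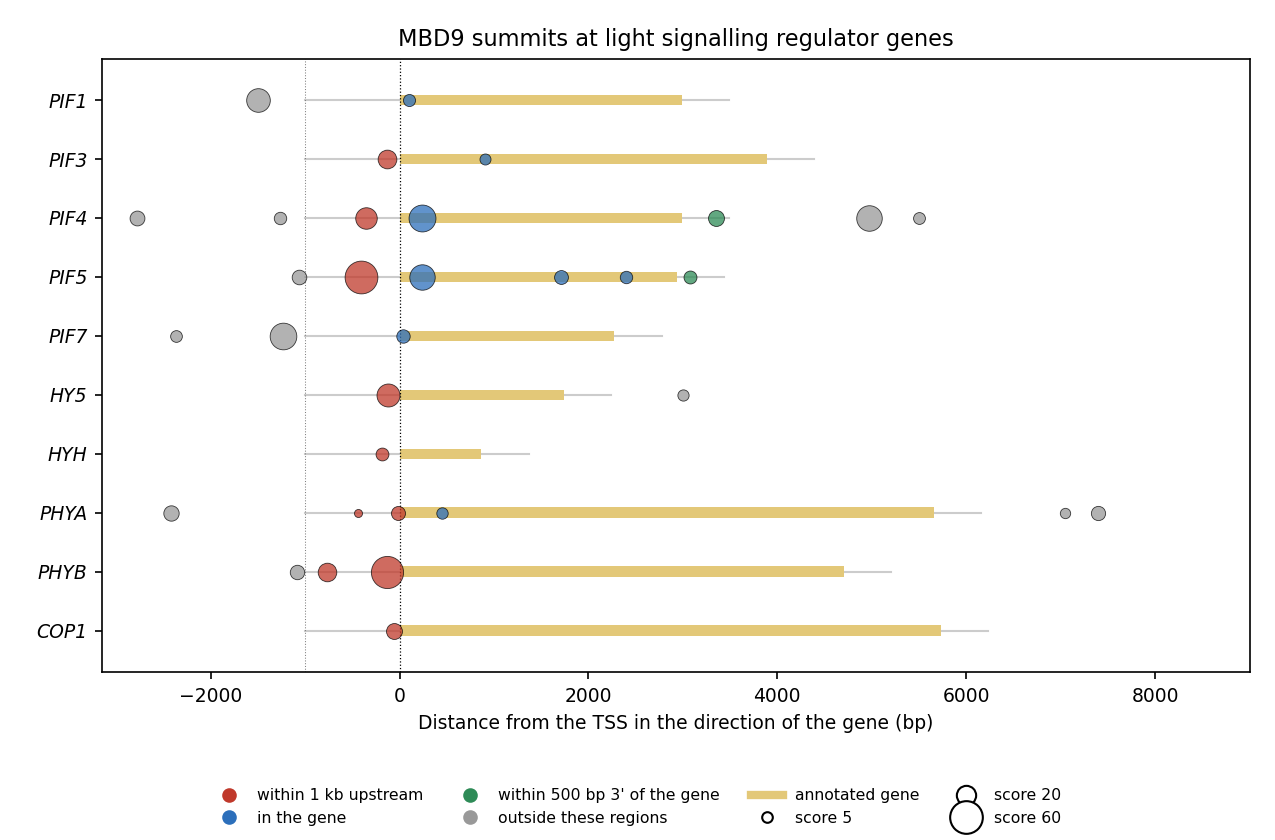
Summits at the 10 light signalling regulator genes. The horizontal axis is the distance from the TSS in bp in the direction of each gene, bars are the annotated genes, grey lines span the upstream and 3′ regions, circles are summits within 3 kb of either gene end with an area that grows with the score, and colours give the region. *PIF5* (60.4) and *PHYB* (58.2) have the largest circles, and those of *PIF1* (30.7) and *PIF7* (39.4) lie beyond 1 kb upstream.

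The bases around the highest upstream summit of each gene are shown because the summit marks where enrichment peaked within the promoter. They are the plus strand of the reference genome (RefSeq, TAIR10.1), with 25 bp to each side of the summit, or 30 bases where the window touches an annotated UTR (*PHYA*). Capitals mark 7 motifs on either strand: the G-box CACGTG, the PBE-box CACATG, the related hexamers GACGTG and also TACGTA, the core ACGT itself, and the elements TGGGCC and GTGGNCC, whose letters belong to sites bound by TCP transcription factors. ACGT lies inside 3 of the others, and TGGGCC and GTGGNCC can overlap.
PHYB at chr2:8139595-8139645: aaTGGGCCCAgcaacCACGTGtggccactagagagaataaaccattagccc
PHYA at chr1:3100820-3100849: aagacgacaacgatagtcttatgggcttca
PIF3 at chr1:3075615-3075665: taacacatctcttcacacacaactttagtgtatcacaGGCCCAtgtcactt
PIF4 at chr2:17885718-17885768: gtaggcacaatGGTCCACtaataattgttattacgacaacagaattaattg
PIF5 at chr3:21831215-21831265: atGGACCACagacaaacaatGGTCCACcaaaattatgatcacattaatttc
HY5 at chr5:3595172-3595222: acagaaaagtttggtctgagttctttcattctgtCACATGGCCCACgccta
HYH at chr3:6023636-6023686: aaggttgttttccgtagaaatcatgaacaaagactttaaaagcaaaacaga
COP1 at chr2:13977801-13977851: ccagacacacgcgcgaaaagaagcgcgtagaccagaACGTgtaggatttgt
The TCP-type letters stand at the summits of *PHYB*, *PIF3*, *PIF4*, *PIF5* and *HY5*, whereas the windows of *PHYA* and *HYH* have no capitals.

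The summits of the photoreceptor genes *PHYA* and *PHYB* had unlike scores, although with no replicate the error of these scores is unknown. *PHYB* (AT2G18790, chr2:8139756-8144461, plus strand), the main red light receptor of green seedlings, had a summit with a score of 58.2 at -136 bp, rank 567 of 13993. The other summits of the same peak lay farther out, with scores of 18.4 at -770 bp and 10.5 at -1083 bp, the last beyond the 1 kb region. Relative to the TSS of the neighbouring gene AT2G18780 these outer summits lay at -844 and -531 bp, so they cannot be assigned to one of the genes. No summit lay inside *PHYB* or within 500 bp of its 3′ end.

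The wider window around the main *PHYB* summit, with 100 bp to each side (chr2:8139520-8139720), is shown because G-boxes and TGGGCC occur there side by side.
PHYB: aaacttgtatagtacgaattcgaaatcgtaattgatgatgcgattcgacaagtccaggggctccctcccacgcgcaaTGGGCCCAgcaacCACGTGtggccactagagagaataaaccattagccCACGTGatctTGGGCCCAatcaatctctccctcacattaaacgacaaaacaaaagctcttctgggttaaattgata
The G-boxes began at -146 and -111 bp, 5 and 25 bp from the summit. A run that reads TGGGCC on both strands flanked the pair on each outer side. GC content within 50 bp of this summit was 57.4%, the highest at the upstream summits of the 10 genes.

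*PHYA* (AT1G09570, chr1:3095160-3100819, minus strand), the far-red light receptor, had lower scores. Its upstream summits had scores of 9.86 at -15 bp and 2.24 at -443 bp, the second close to the cutoff at rank 13671. The first lay 315 bp past the 3′ end of the neighbour AT1G09575 and the second inside that gene. A summit with a score of 6.01 lay 455 bp into *PHYA*, in the same peak as the summit at -15 bp. It was in a 5′ UTR exon of 3 transcripts and upstream of the start of 3 others. The highest upstream score of *PHYA* was at the 40.7th percentile of the 4752 protein-coding genes with an upstream summit, and that of *PHYB* at the 94.9th percentile.

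Among the PIF genes, *PIF4* and *PIF5*, which drive elongation growth in shade and warmth, had the highest scores within these regions and the most summits. *PIF4* (AT2G43010, chr2:17886101-17889087, plus strand) had a summit with a score of 25.2 at -358 bp and one with a score of 40.2 at 240 bp into the gene. Both belonged to 1 peak. Another, with a score of 13.1, lay 361 bp past the 3′ end. The upstream summit also lay at -879 bp from the TSS of the lncRNA gene AT2G09410.

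*PIF5* (AT3G59060, chr3:21827905-21830837, minus strand; PIL6 in the annotation) had a summit with a score of 60.4 at -403 bp, rank 506 of 13993 and the highest score in the 3 regions of the 10 genes. It also lay at -17 bp from the TSS of the lncRNA gene AT3G09185 and at -952 bp from that of the lncRNA gene AT3G59068, so it cannot be assigned to *PIF5* alone. In the same peak, summits with scores of 35.8 at 239 bp into the gene and 10.8 at -1065 bp were found. The summit at 239 bp also lay at -659 bp from the TSS of AT3G09185. A weaker pair of summits lay in coding exons of *PIF5*, with scores of 9.56 at 1708 bp and 7.39 at 2401 bp. The summit at 2401 bp also lay at -927 bp from the TSS of the neighbouring gene *PAO3*. The last summit, with a score of 8.16, lay 146 bp past the 3′ end.

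The arrangement of the summits around the TSS was alike in both genes, -358 and 240 bp in *PIF4* and -403 and 239 bp in *PIF5*. The order of the scores was opposite, with the upstream summit lower in *PIF4* and higher in *PIF5*. Inside both genes the summit next to the TSS was in a 5′ UTR exon of some transcripts (3 of 5 in *PIF4*, 2 of 4 in *PIF5*) and upstream of the start of the others. Both genes are followed by a polyamine oxidase gene, *PAO2* after *PIF4* and *PAO3* after *PIF5*. The summit on the 3′ side of *PIF5* was at -250 bp from the TSS of *PAO3*. For *PIF4*, a summit with a score of 36.1 lay 1988 bp past the 3′ end and at -428 bp from the TSS of *PAO2*.

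The G-box nearest to the summit inside each gene is shown with 12 bases to each side, on the strand of the gene, to compare the 2 genes at the same place.
PIF4 at chr2:17886328-17886357: cccagaacttgcCACGTGtcgttcatttca
PIF5 at chr3:21830552-21830581: ctgacaattcgcCACGTGtcggtcatcctg
The G-box began 239 bp into *PIF4*, with the summit on it, and 268 bp into *PIF5*, 29 bp from the summit. The windows had the same base at 20 of 30 positions, and at 14 of the 24 outside the G-box. A G-box within 50 bp was thus found at 2 of the 8 summits inside the 10 genes, against 6.19% of 6092 summits inside protein-coding genes. Upstream, the windows of *PIF4* and *PIF5* share the 12-base run acaatggtccac, which occurs at 12 sites of the nuclear genome on both strands. The run is on the plus strand in both, and therefore in opposite orientation relative to the 2 genes. The other 20 pairs among the 7 windows of 51 bases share runs of 5 to 7 bases at most. The run shared by *PIF4* and *PIF5* contains a GTGGNCC site in each, so it is not a separate likeness. Whether 12 sites in the genome differ from chance was not tested.

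The *PIF5* window with 100 bp to each side (chr3:21831140-21831340) is shown for its repeats of GTGGNCC.
PIF5: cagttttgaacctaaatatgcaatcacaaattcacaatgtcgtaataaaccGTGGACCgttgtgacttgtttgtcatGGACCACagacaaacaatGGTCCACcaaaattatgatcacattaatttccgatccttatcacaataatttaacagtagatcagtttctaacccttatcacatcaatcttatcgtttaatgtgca
Its 3 sites began at -404, -386 and -360 bp, at 0, 17 and 43 bp from the summit. In *PIF4* a single site began at -372 bp, 8 bp from the upstream summit. A further G-box of *PIF5* at -165 bp was 238 bp from the nearest summit.

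**Figure D2:**
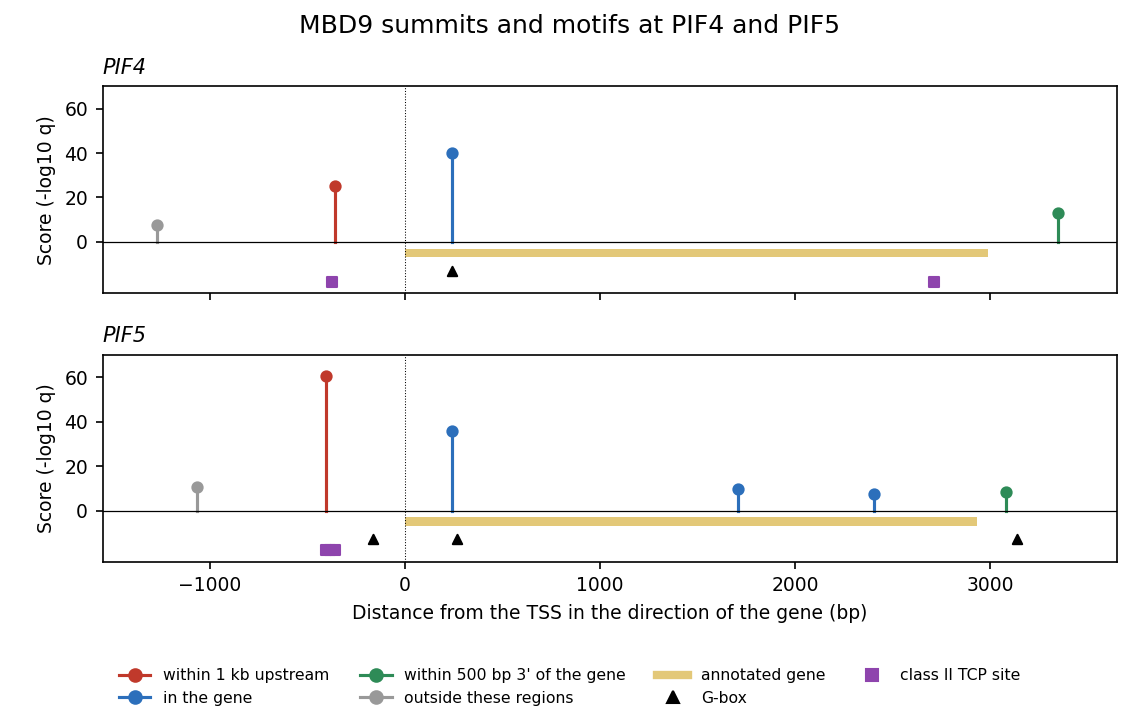
Summits and motifs at *PIF4* (top) and *PIF5* (bottom). The horizontal axis is the distance from the TSS in bp, the vertical axis the score (-log10 of the q value), stems are summits coloured by region, triangles are G-boxes, squares are GTGGNCC sites (class II TCP site) and the bar is the annotated gene. In both genes a summit stands over the squares upstream (25.2 in *PIF4*, 60.4 in *PIF5*) and another next to the G-box inside the gene (40.2 and 35.8).

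The other 3 PIF genes had lower scores within these regions. *PIF3* (AT1G09530, chr1:3075768-3079654, plus strand), the founding member of the family, had a summit with a score of 18.7 at -128 bp and one with a score of 5.52 at 909 bp. The second was in a 5′ UTR exon of all 6 transcripts. *PIF3* has a long 5′ UTR, and its coding sequence starts 1448 bp from the TSS. A summit with a score of 87.0 lay more than 3 kb upstream of *PIF3*, outside the stretch examined.

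*PIF1* and *PIF7* had no summit within 1 kb upstream. *PIF1* (AT2G20180, chr2:8704024-8707009, minus strand; PIL5 in the annotation), a repressor of seed germination, had a summit with a score of 6.97 at 103 bp into the gene. It was upstream of 3 of its 8 transcripts, which start at 109 bp. *PIF7* (AT5G61270, chr5:24638491-24640765, minus strand), which activates auxin synthesis in shade, had one with a score of 8.87 at 42 bp, upstream of 1 of its 3 transcripts, which starts at 126 bp. In both genes the highest score was farther out, 30.7 at -1498 bp for *PIF1* and 39.4 at -1233 bp for *PIF7*. No other gene lies between these summits and the TSS, since the space upstream is 4570 bp for *PIF1* and 2791 bp for *PIF7*. With a region of 2 kb, 10 of 10 genes had an upstream summit, against 23.7% of all protein-coding genes. The bases within 35 bp of these distal summits are shown because they are the strongest of the 2 genes.
PIF1 at chr2:8708472-8708542: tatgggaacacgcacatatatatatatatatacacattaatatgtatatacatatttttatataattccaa
PIF7 at chr5:24641963-24642033: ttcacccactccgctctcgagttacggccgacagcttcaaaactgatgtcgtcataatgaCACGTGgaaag
The *PIF7* window holds a G-box 25 bp from the summit. The *PIF1* window is rich in A and T, with a GC content of 23.8% within 50 bp, and holds none of the 7 motifs.

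Of the 8 summits inside the 10 genes, 6 lay in a 5′ UTR exon of at least 1 transcript (40.9 to 92.9%), 1 in each PIF gene and 1 in *PHYA*, against 30.4% of summits inside protein-coding genes. The other 2 were those in coding exons of *PIF5*. The interval treats the 8 summits as independent, although 3 of them are in *PIF5*. The median score was 8.13 for the 8 summits inside the genes, below the median of the whole list.

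*HY5* and *HYH*, the bZIP genes, each had a single summit in the 3 regions, upstream of the TSS. That of *HY5* (AT5G11260, chr5:3593335-3595073, minus strand) had a score of 29.0 at -124 bp. It lay 77 bp past the 3′ end of *OCP3*, a homeodomain gene that ends 201 bp before *HY5*, so the space holding this summit belongs to both genes. A PBE-box began at -138 bp, 9 bp from the summit, and overlaps the TGGGCC and GTGGNCC letters that follow it on the plus strand. *HYH* (AT3G17609, chr3:6023844-6024710, plus strand), the closest homolog of *HY5*, had a summit with a score of 8.02 at -183 bp, the lowest of the highest upstream scores. None of the motifs was within 50 bp, and the space upstream of *HYH* is 2697 bp.

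*COP1* (AT2G32950, chr2:13977881-13983609, plus strand) had 1 summit, with a score of 13.1 at -55 bp. *COP1* shares its promoter with *AGO6*, an Argonaute gene of RNA-directed DNA methylation that is transcribed in the opposite direction from 360 bp away. The summit was at -305 bp from the TSS of *AGO6* and so stood nearer to the TSS of *COP1*. No summit lay inside this gene of 5729 bp, the longest of the 10.

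Over the 8 genes with an upstream summit, the highest score ran from 8.02 (*HYH*) to 60.4 (*PIF5*), in the order *HYH*, *PHYA* (9.86), *COP1* (13.1), *PIF3* (18.7), *PIF4* (25.2), *HY5* (29.0), *PHYB* (58.2) and *PIF5*. With no replicate, whether neighbours in this order differ cannot be said. Their median was 22.0, against 12.6 over the 4752 protein-coding genes with an upstream summit. *PIF5* was at the 95.5th percentile of these genes, *HY5* at 79.3, *PIF4* at 74.8, *PIF3* at 65.2, *COP1* at 51.4 and *HYH* at 32.7. A score of at least 20 upstream was found in 4 of 10 genes (*PIF4*, *PIF5*, *HY5* and *PHYB*; 16.8 to 68.7%), against 5.64%. Summits both upstream and inside the gene were found in 4 of 10 (*PIF3*, *PIF4*, *PIF5* and *PHYA*), against 4.88%.

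**Figure D3:**
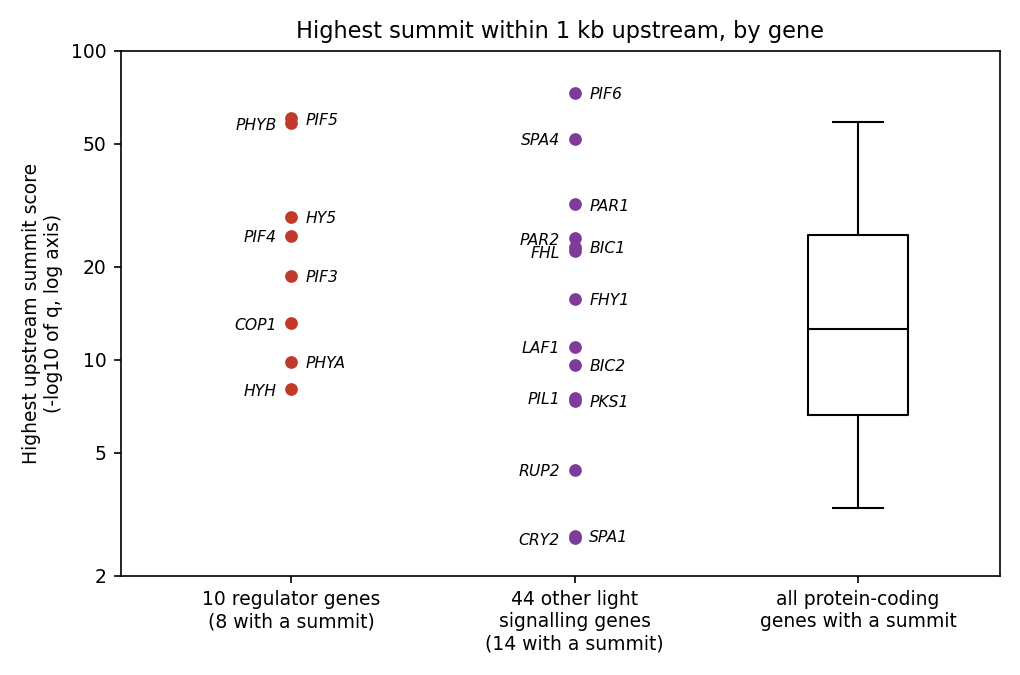
Highest summit score within 1 kb upstream for each gene that has one, on a log axis (-log10 of the q value). Points are the 8 regulator genes (left) and the 14 other light signalling genes (middle), and the box (right) gives the median and quartiles of the 4752 protein-coding genes with an upstream summit, with whiskers at the 5th and 95th percentiles. The 8 regulator genes lie between 8.02 and 60.4, with a median of 22.0, against 12.6 for all genes.

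The median distance of the upstream summits of the 10 genes from the TSS was -159.5 bp, against -335 bp for all upstream summits of protein-coding genes. Of the 10, 6 were within 200 bp of the TSS (in *PHYA*, *COP1*, *HY5*, *PIF3*, *PHYB* and *HYH*; 31.3 to 83.2%), against 37.5% of the 5739 pairs of an upstream summit and a protein-coding gene. This interval includes 37.5%, and the distance of 200 bp was chosen after the values had been seen. The upstream summits of *PIF4* and *PIF5* were farther out. The second summits of *PHYA* and *PHYB* were at -443 and -770 bp.

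**Figure D4:**
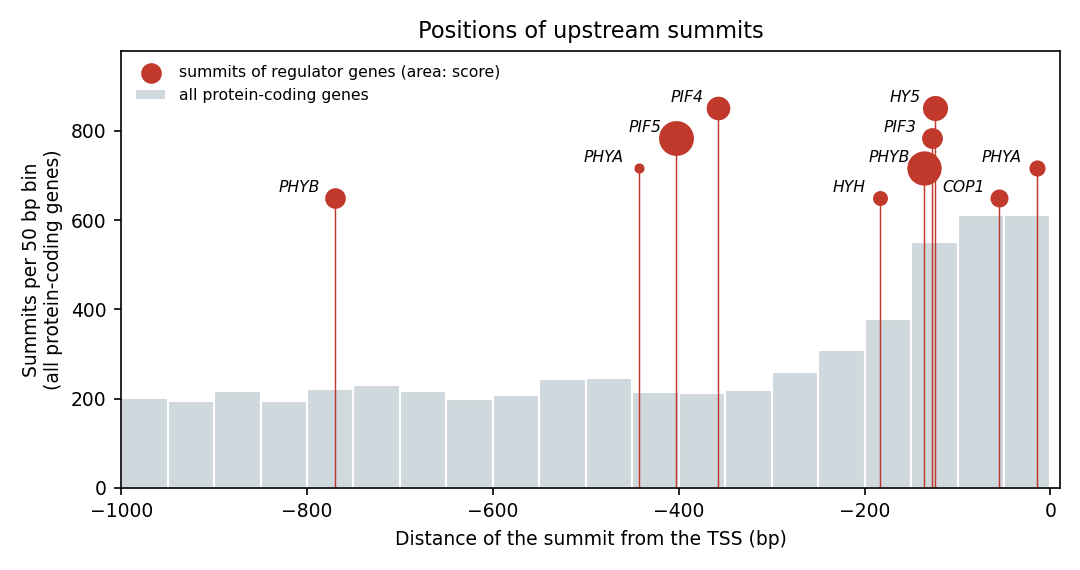
Distance of upstream summits from the TSS in bp. Grey bars count the upstream summits of all protein-coding genes in bins of 50 bp, and red circles mark the 10 summits of the regulator genes, with an area that grows with the score and heights set only to separate the names. Of the circles, 6 lie within 200 bp of the TSS, where the grey bars are also highest.

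Motifs were counted on both strands within 50 bp of the 10 upstream summits. CACGTG was found at 1 of 10, the main summit of *PHYB*, against 11.0% of 5099 upstream summits of protein-coding genes, a share near that of upstream summits in general. In the whole 1 kb upstream, CACGTG was present in 2 of 10 genes (*PHYB* and *PIF5*), against 14.8%. CACATG was found at 1 of 10 (*HY5*), against 8.84% of all upstream summits, and ACGT at 4 of 10, against 36.9%. GACGTG and TACGTA were at 0 of 10 (0 to 27.8%), against 6.02% and 2.57%. TGGGCC was found at 4 of 10 summits (*PIF3*, *HY5* and both of *PHYB*; 16.8 to 68.7%), against 5.79%. The interval treats summits as independent, although both of *PHYB* belong to 1 peak. GTGGNCC was found at 3 of 10 (*PIF4*, *PIF5* and *HY5*; 10.8 to 60.3%), against 8.24%. In the whole 1 kb upstream, TGGGCC was present in 4 of 10 genes (16.8 to 68.7%), against 24.5%, which the interval includes. GTGGNCC was present there in 4 of 10 genes (16.8 to 68.7%), against 13.2%. TGGGCC and GTGGNCC were searched after the windows had been seen, so these shares describe the windows and are not a test.

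To place the 10 genes within their pathway, 44 other light signalling genes were examined. An upstream summit was found in 14 of 44 (31.8%, 20 to 46.6%), a share between that of the 10 genes and the 17.3% of all protein-coding genes. A summit in the gene was found in 16 of 44 (36.4%), against 13.6% of all protein-coding genes. On the 3′ side 5 of 44 had one (11.4%), a share near the 7.76% of all protein-coding genes. In any of the regions 27 of 44 had one (61.4%), against 30.1%. The median length of the 44 genes was 2933.5 bp, close to that of the 10 genes, and their median space upstream was 832 bp. Their median highest upstream score was 13.4.

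Of the other photoreceptor genes, 1 of 8 had a summit upstream (12.5%), a share near the 17.3% of all protein-coding genes. In the gene 6 of 8 had one, against 13.6%. These 8 genes are long, from 3185 bp (*CRY2*) to 9287 bp (*PHOT2*), against a median of 2078 bp. Their length was not accounted for in this count. *PHYA* and *PHYB* both had a summit upstream and *PHYA* one in the gene. The other photoreceptor gene with an upstream summit was *CRY2*, a cryptochrome that senses blue light, with a score of 2.64 at -442 bp. *PHYC*, *PHYD*, *PHYE*, *CRY1*, *PHOT1*, *PHOT2* and *UVR8* had none. The *CRY2* summit lay beyond the near end of the next gene upstream, 299 bp from the TSS, and may not belong to *CRY2* alone. Of the other bHLH genes, 4 of 6 had an upstream summit, as did 3 of the 5 PIF genes described above. The share of all protein-coding genes was 17.3%. *PIF6*, the relative of the PIF genes known from developing seeds, had a score of 73.0 at -508 bp, above each of the 10 genes. *PIL1*, induced by shade, had 7.53 at -396 bp. *PAR1* and *PAR2*, atypical bHLH proteins that restrain the shade response, had 31.8 at -757 bp and 24.7 at -731 bp. *PIF8* and *HFR1* had none upstream. Another annotated gene overlaps the TSS of *PIF6*, and the next gene upstream of *PAR1* lies 503 bp away, nearer than its summit. These summits may therefore not belong to *PIF6* and *PAR1* alone.

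The next genes belong to the protein degradation machinery in which COP1 works. Among the repressor genes, 2 of 9 had an upstream summit, a share (22.2%) near the 17.3% of all protein-coding genes. Both encode SPA proteins that form complexes with COP1. *SPA4* had a score of 51.8 at -315 bp and *SPA1* of 2.69 at -208 bp. *SPA2*, *SPA3*, *DET1*, *COP10*, *DDB1A*, *DDB1B* and *CUL4* had none. No gene of the COP9 signalosome (*CSN1*, *CSN2*, *CSN3*, *CSN4*, *CSN5A*, *CSN5B*, *CSN6A*, *CSN6B*, *CSN7* and *CSN8*) had an upstream summit. The share of 0 of 10 has an interval of 0 to 27.8%, which includes the 17.3% of all protein-coding genes. On the 3′ side 3 of 10 had one (10.8 to 60.3%), against 7.76%.

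Signal transducers and feedback regulators had an upstream summit in 7 of 11 genes, against 17.3% of all protein-coding genes. *FHY1* and *FHL*, which carry phytochrome A into the nucleus, had scores of 15.7 at -84 bp and 22.4 at -127 bp. *LAF1*, a MYB factor of far-red signalling, had 11.0 at -957 bp, and *PKS1*, a phytochrome kinase substrate, 7.37 at -10 bp. *RUP2*, a repressor of the UV-B receptor, had 4.40 at -91 bp. *BIC1* and *BIC2*, inhibitors of cryptochromes, had 23.2 at -546 bp and 9.63 at -861 bp. *FHY3*, *FAR1*, *RUP1* and *HMR* had none upstream. The *BIC1* summit lay beyond the near end of the next gene upstream, 187 bp from the TSS, and may not belong to *BIC1* alone.

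**Figure D5:**
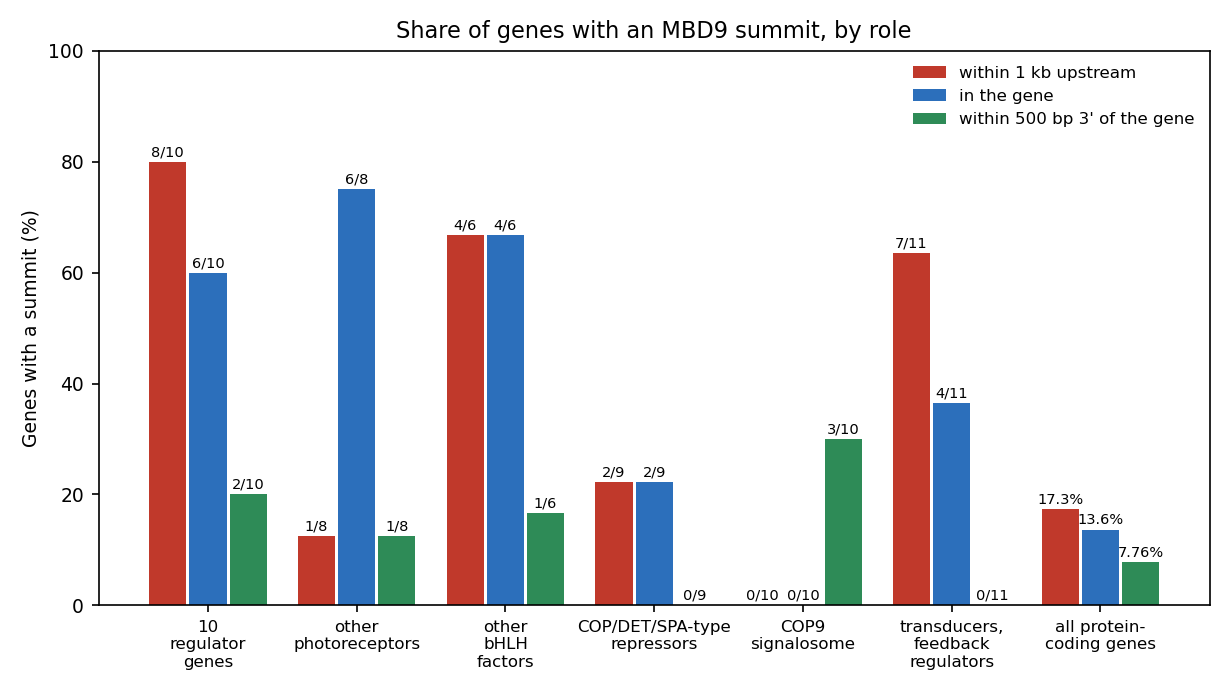
Share of genes with a summit within 1 kb upstream (red), in the gene (blue) and within 500 bp of the 3′ end (green), in percent, for the 10 regulator genes, the 44 other light signalling genes by role, and all protein-coding genes. Numbers over the bars are genes with a summit of all genes in the list. The 10 regulator genes have an upstream summit in 8 of 10, the COP9 signalosome in 0 of 10 (interval 0 to 27.8%) and all protein-coding genes in 17.3%.

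Only uniquely mapping reads could add to a summit. In the regions of the 10 genes all 50-mers were unique in the nuclear genome, except inside *PIF1* (94.3% unique) and upstream of *PIF3* (97.1%). The lowest values among the other light signalling genes were upstream of *HMR* (76.4%) and *PIF8* (80.7%), both without an upstream summit.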

How the data were processed

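ChIP-seq libraries of MBD9-3xFLAG (in *mbd9-3*) and wild-type FLAG seedlings, 1 each, were processed by the authors. Reads were aligned to TAIR10 without organelles with Bowtie, unique reads were kept, duplicates were removed with SAMtools, and peaks were called once with MACS2 2.1.1 (q value 0.01, extension 200 bp). The deposited score of each summit is the −log10 of its q value. Read depth is unknown.

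Summits were converted to 1-based positions and placed relative to genes of RefSeq TAIR10.1. This annotation can start genes at other bases than the one the authors used, while 0 summits lay beyond its chromosome ends. Regions were 1 kb upstream of the TSS, the annotated gene and 500 bp on the 3′ side. Genes were counted from summit bases, not from peak widths. Placement was checked on simulated data. No test was run, since each group has 1 library. Shares have 95% Wilson intervals.

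The 10 genes and the list of 44 were chosen with earlier results of these data known. All 10 genes are named in full, of the 44 each with an upstream summit with its score and the others by symbol, and neighbours whose regions hold a summit of the 10. The motifs TGGGCC and GTGGNCC, the strata by space and length, the count of 5′ UTR exons, the distance of 200 bp, the comparison of *PIF4* with *PIF5*, the wider windows and the distal windows of *PIF1* and *PIF7* were chosen after values had been seen. Alternatives covered window widths, score thresholds, the TSS used and the counting of summits. Python 3.11.15, NumPy 2.4.6, SciPy 1.17.1 and Matplotlib 3.10.9 were used.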

Additional observations from a re-analysis of the deposited data

How the results depend on the processing

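Of 57 alternatives to 15 results, 50 stayed within the limits set for them and 7 did not. The count of 50 does not measure robustness, since some alternatives could not move a result. The highest upstream summits of all 8 genes lie within 500 bp, and 10 of 10 genes in any region cannot rise. The limits were also wide. With 2 kb upstream, the other light signalling genes with an upstream summit rose from 14 to 20 and still counted as within them. With summits of a score of at least 10, the 10 genes had 10 summits, 2 genes had one in the gene (6.79% of all protein-coding genes), 1 on the 3′ side (3.90%) and 6 in any region (18.0%), and 8 of the 44 other genes had one upstream (10.2%). With 500 bp upstream, 8 of the 44 had one (12.4%), and with 250 bp on the 3′ side 1 of the 10 (4.46%). Genes of the 10 with an upstream summit numbered 6 (score of at least 10) to 10 (2 kb upstream, or the TSS of any transcript) over the alternatives, and 7 with only the highest summit of each peak. The highest upstream scores were the same with 500 bp and 2 kb in the 8 genes with one. No paired analysis was possible because the MBD9-3xFLAG line and wild type have 1 library apiece. Unknown depth limits what the absence of a weak summit means.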
